A study of Homo sapiens with 12 samples.

Results

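The 10 genes described here encode subunits of Polycomb repressive complex 1 (PRC1): PHC1, PHC2, PHC3, CBX2, CBX7, CBX8, BMI1, PCGF6, RNF2 and RYBP. They were taken by symbol from a table of raw counts for 56638 genes, and all 10 were found and passed the filter on low counts, which kept 19130 genes. Messenger RNA had been sequenced in NT2/D1 cells, a human pluripotent line derived from an embryonal carcinoma, which differentiates when given all-trans retinoic acid (ATRA). The series asks how its transcriptome depends on PRMT6, an arginine methyltransferase of histone H3 and other proteins. The 4 groups were CRISPR/Cas9 control cells untreated, the same control with 1 µM ATRA for 3 days, PRMT6 knockout cells untreated, and the knockout with the same ATRA treatment. All were the same cell line in the same serum medium, and each group had 3 libraries, 12 in all. The labels name a single knockout line (KO-2), so effects of losing PRMT6 and features of that line cannot be told apart. Whether replicate libraries were grown as separate cultures is not stated in the labels, and p-values measure only the spread between libraries, which may be technical.

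PRC1 places ubiquitin on histone H2A and compacts chromatin at repressed developmental genes. Every form of the complex holds a RING-type ubiquitin ligase, RNF2 (RING1B) or RING1, joined to 1 of the 6 PCGF proteins, of which BMI1 is PCGF4. Canonical complexes add a CBX protein, whose chromodomain reads methylated histone H3 lysine 27, and a PHC protein, which polymerises through its SAM domain. Variant complexes carry RYBP or YAF2 in their place, and the complex built on PCGF6 also contains the DNA-binding proteins E2F6, MGA, MAX and L3MBTL2. In pluripotent cells both kinds of complex hold lineage genes silent, and the CBX, PHC and PCGF paralogues in use differ between pluripotent and differentiated cells.

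Promoters are shown for PHC1 and PHC2, whose levels differed most between untreated and ATRA-treated control cells and in opposite directions, and for PCGF6, which had the smallest adjusted p of the members between genotypes. Each is a window of 300 bases that reaches from before to just past the RefSeq start on GRCh38.p14, written on the gene's own strand. Capitals mark the E-box CACGTG, the only searched motif found in these 3 windows.
PHC1: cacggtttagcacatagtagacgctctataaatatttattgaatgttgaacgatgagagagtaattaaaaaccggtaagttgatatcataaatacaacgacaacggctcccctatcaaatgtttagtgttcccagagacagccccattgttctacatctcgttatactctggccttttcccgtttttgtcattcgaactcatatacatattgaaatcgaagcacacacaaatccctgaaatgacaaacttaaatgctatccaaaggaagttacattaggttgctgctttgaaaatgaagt
PHC2: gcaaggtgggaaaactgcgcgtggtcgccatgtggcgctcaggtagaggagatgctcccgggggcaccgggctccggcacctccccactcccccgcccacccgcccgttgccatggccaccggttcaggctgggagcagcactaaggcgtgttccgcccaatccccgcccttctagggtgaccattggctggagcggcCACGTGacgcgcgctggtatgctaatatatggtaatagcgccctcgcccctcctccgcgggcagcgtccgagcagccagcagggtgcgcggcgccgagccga
PCGF6: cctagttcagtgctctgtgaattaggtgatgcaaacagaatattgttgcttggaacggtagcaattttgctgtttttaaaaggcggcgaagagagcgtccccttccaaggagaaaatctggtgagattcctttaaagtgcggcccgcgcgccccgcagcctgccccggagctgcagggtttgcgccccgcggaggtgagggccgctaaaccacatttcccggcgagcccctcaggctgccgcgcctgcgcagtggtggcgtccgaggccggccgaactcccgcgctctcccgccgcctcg
The PHC1 window is chr12:8913593-8913892 on the plus strand, with 10 CpG dinucleotides and 37% G+C. PHC2 lies at chr1:33431046-33431345 on the minus strand, with 30 CpG and 69% G+C. The PCGF6 window, chr10:103351091-103351390 on the minus strand, has 28 CpG and 61.7% G+C. The median over 27305 promoters of this length was 14 CpG, so the PHC1 window lies below it and the others above. Both strands were searched for AGGTCA (the core element of retinoic acid receptor sites), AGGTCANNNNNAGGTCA (their direct repeat), GGCGGGAA (an E2F core) and CACGTG. Of the 10 members, 8 had a promoter entry, all but CBX2 and CBX8. PHC2, PHC3 and BMI1 held CACGTG, which was present in 7.43% of all promoters. It stood 52 bases before the start in PHC2, 79 in PHC3 and 70 in BMI1. AGGTCA was found in PHC3 alone among the 8 members, 75 bases before the start and overlapping its E-box, and in 13.9% of all promoters. RNF2 held GGCGGGAA on the minus strand 111 bases before the start, against 3.18% of all promoters. None of the 8 held the direct repeat. Its exact letters occurred in only 1 of the 27305 promoters, so its absence does not set the members apart.

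Total counts ran from 25469900 to 60394900 per library. PRMT6 was at 1.94 to 29.9 CPM (a gene's count relative to the TMM-scaled size of its library, the unit of all levels here) in the control libraries and at 0 to 0.0587 CPM in the knockout libraries. All 10 pluripotency markers, POU5F1, NANOG and SOX2 among them, averaged 5 CPM or more in each group, and 5 blood markers were each below 5 CPM. Summed pluripotency markers were not even across libraries. They stood at 5174, 5509 and 3667 CPM in the untreated control and 3373, 3372 and 5722 CPM in the untreated knockout. With ATRA the sums were 2287, 3835 and 2655 CPM in the control and 1590, 2804 and 1566 CPM in the knockout. Summed stromal markers stood at 270 to 1518 CPM in control and 2248 to 13918 CPM in knockout libraries, the lowest knockout values being those of untreated replicate 3 and ATRA replicate 2. Untreated knockout replicates 1 and 2 and ATRA-treated knockout replicates 1 and 3 were nearly alike, with a chi-square per gene of 9.01 and 1.91, where all further within-group pairs gave 78.1 to 416. Sampling noise did not account for either difference, and all 12 were kept as separate libraries. G+C-rich genes were relatively more abundant in knockout than in control libraries. For each library, every gene's log2(CPM + 1) was taken relative to its mean over the 12 libraries. The rank correlation of this deviation with G+C content across genes was 0.148 to 0.520 in knockout libraries. In control libraries it was -0.410 to -0.229, with 0.100 in ATRA replicate 3.

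**Figure D1:**
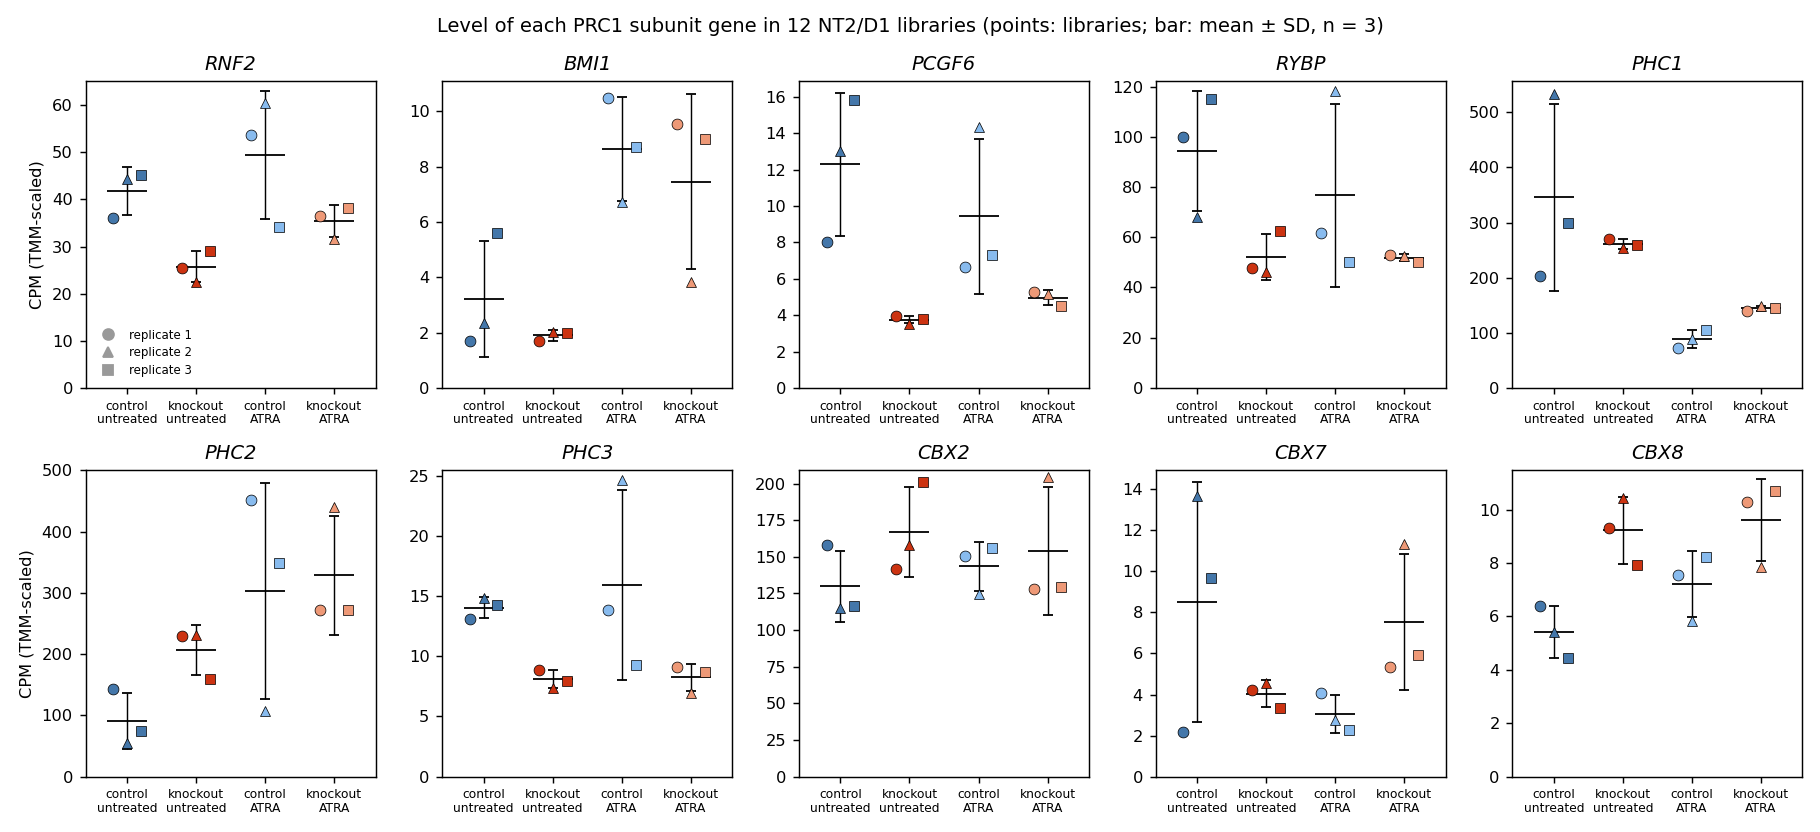
Level of each of the 10 PRC1 subunit genes in CPM (vertical axis, linear, from 0) in the 4 groups; points are libraries and bars are mean ± SD, n = 3. PHC1 is lower with ATRA than without in both genotypes, with means of 89.5 against 346 CPM in the control and 145 against 261 CPM in the knockout, and PCGF6 lies between 3.53 and 3.94 CPM in all 3 untreated knockout libraries.

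Per kilobase of exon, PHC1 was the most abundant member in untreated control cells, at 56.4 ± 27.7 CPM per kb (mean ± SD, n = 3), with all 3 libraries above those of the next gene. CBX2 followed at 22.9 ± 4.31, PHC2 at 16.3 ± 8.34, RYBP at 11.1 ± 2.81 and RNF2 at 10.7 ± 1.30 CPM per kb, and libraries of neighbours in this order from CBX2 to RNF2 overlapped. PCGF6 stood apart below them at 4.09 ± 1.31 CPM per kb, and CBX8, CBX7, PHC3 and BMI1 lay between 0.731 and 1.31, each overlapping the next. In the untreated knockout the order opened with PHC1 (42.5), PHC2 (37.2) and CBX2 (29.5 CPM per kb), neighbours that overlapped. PCGF6 lay below CBX8 there without overlap, at 1.25 against 2.24 CPM per kb, the opposite of its place in the control. With ATRA, PHC2 had the highest mean in both genotypes, at 54.5 in the control and 59.2 CPM per kb in the knockout. PHC1 followed CBX2 by mean, at 14.6 and 23.6. Libraries of PHC2 and CBX2 overlapped in the control with ATRA, and those of CBX2 and PHC1 in the knockout with ATRA. BMI1, with the lowest mean of the 10 in both untreated groups, was seventh by mean in both ATRA groups, at 1.97 and 1.70 CPM per kb. In every group its libraries overlapped those of its neighbours in the order. Exon lengths for this order came from GENCODE, because the deposited lengths of CBX2 and CBX8 were 2.01 and 2.02 times as long.

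In untreated cells, 4 of the 10 members differed between genotypes: PCGF6, RNF2 and RYBP fell and CBX8 rose in the knockout (edgeR quasi-likelihood test, adjusted p below 0.05 over all genes tested). Over all genes 34.9% were called, 13% higher and 21.9% lower, so a count of 4 in 10 is near the background. These are bulk libraries, in which fewer cells expressing a gene and less of its RNA per cell cannot be told apart. The median log2 fold change was -0.73 over the members and -0.11 over all genes. Libraries did not overlap between genotypes for 6 members (PHC2 and CBX8 higher, RNF2, PCGF6, RYBP and PHC3 lower), against 47.9% of all genes (20.9% higher and 27% lower). With ATRA, none of the members was called by edgeR, against a background of 7.51%, 3.27% higher and 4.24% lower. At an unadjusted edgeR p below 0.05 there were 4 members and 5376 of all 19130 genes. DESeq2 called 1 member and 2964 of all genes, and limma-voom 0 members and 1015 of all genes. No overlap between genotypes was then seen for PHC1 and CBX7, which were higher in the knockout, and PCGF6 and PHC3, which were lower, against 34.6% of all genes (16.7% higher and 17.9% lower).

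**Figure D2:**
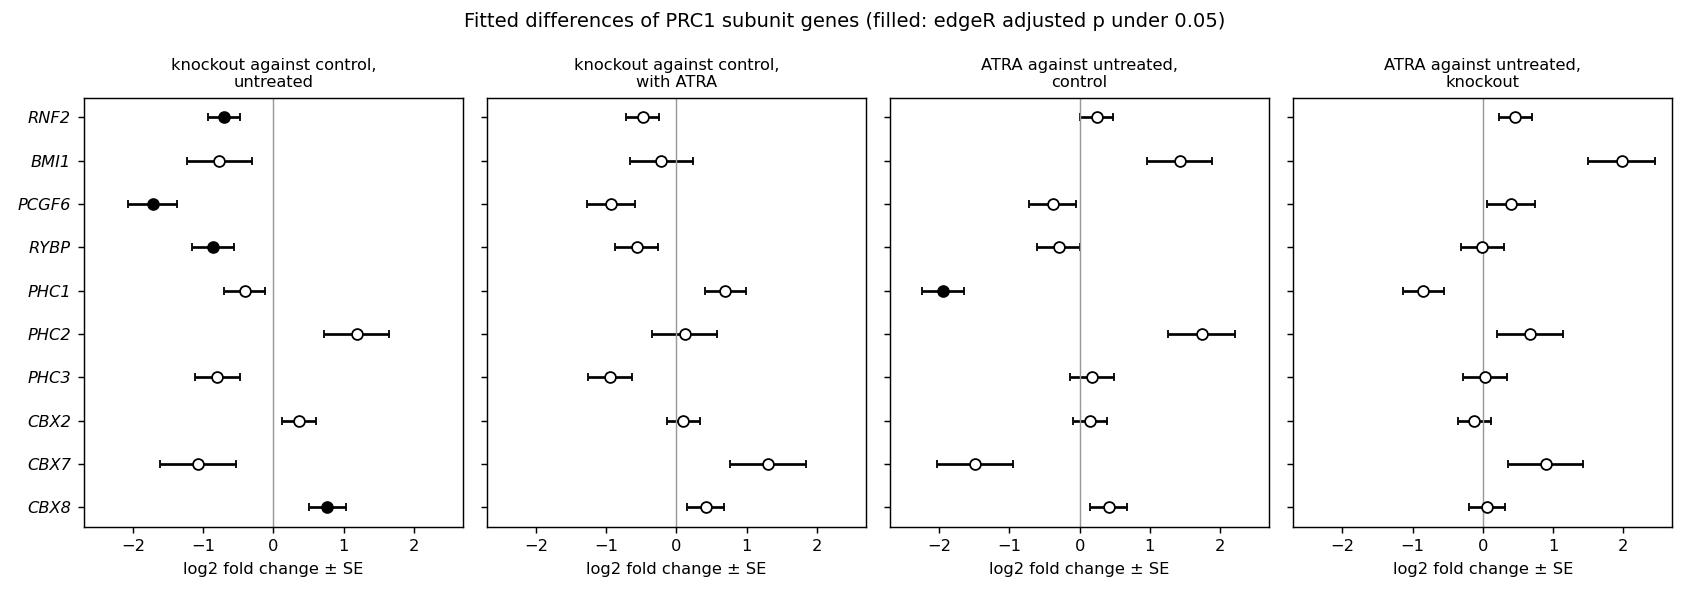
Fitted log2 fold change ± SE (horizontal axis) of the 10 members in the comparisons of genotype and of ATRA; filled points passed an edgeR adjusted p of 0.05. Filled points are PCGF6, RNF2, RYBP and CBX8 for genotype in untreated cells and PHC1 (-1.95) for ATRA in the control.

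RNF2, the main H2A ubiquitin ligase of the complex, was lower in the untreated knockout. It stood at 36.0, 44.3 and 45.2 CPM in the untreated control (replicates 1 to 3, the order used throughout) and at 25.4, 22.6 and 29.1 CPM in the untreated knockout. All 3 knockout libraries lay below all 3 control libraries, a fall of 1.63-fold (log2 fold change -0.70 ± 0.23 SE, edgeR adjusted p = 0.0357). With each library's G+C trend removed the value was 0.26 and was not called (edgeR adjusted p = 0.336), and the median of its 20 neighbouring genes was -0.73. With ATRA, RNF2 was at 53.7, 60.5 and 34.1 CPM in the control and 36.5, 31.6 and 38.1 CPM in the knockout. The groups overlapped through control replicate 3, and the difference was not called (-0.48 ± 0.23 SE, edgeR adjusted p = 0.199). RING1, its paralogue in the same role, went the other way in untreated cells: 16.8, 12.9 and 21.7 CPM in the control and 34.7, 32.5 and 24.7 CPM in the knockout, without overlap. That rise was called (0.84 ± 0.24 SE on the log2 scale, edgeR adjusted p = 0.0207). With each library's G+C trend removed RING1 came to 0.60, above 0 as RNF2 was, and was not called (edgeR adjusted p = 0.0865). With ATRA, RING1 stood at 25.9, 20.2 and 27.8 CPM in the control and 41.8, 34.8 and 42.1 CPM in the knockout, again without overlap but not called (0.68 ± 0.24 SE, edgeR adjusted p = 0.0962). RNF2 made up 49.8, 61.5 and 49.1% of the RNF2 and RING1 sum per GENCODE exon length in the untreated control and 25.4, 24.4 and 35.3% in the untreated knockout. With ATRA its share was 49.0, 58.1 and 36.3% in the control and 28.9, 29.7 and 29.6% in the knockout, so that no control library overlapped a knockout library of the same treatment. These shares were not corrected for the G+C trend, and the G+C content was 36.0% for RNF2 and 61.6% for RING1. Per deposited length, which for RING1 is 6.02 times the GENCODE exon length, RNF2 gave 85.1, 90.2 and 84.8% in the untreated control and 66.2, 65.1 and 75.9% in the untreated knockout.

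PCGF6, the PCGF protein of the variant complex with E2F6 and MGA, fell in the untreated knockout. Control libraries held 8.03, 13 and 15.8 CPM (12.3 ± 3.94) and knockout libraries 3.94, 3.53 and 3.77 CPM (3.75 ± 0.202, SD, n = 3 each). The groups did not overlap, and the knockout values were 3.28-fold lower (log2 fold change -1.72 ± 0.35 SE, edgeR adjusted p = 0.00569). PCGF6 was the member called in all 12 fits that left out 1 library each. With ATRA it stood at 6.64, 14.3 and 7.28 CPM in the control and 5.25, 5.14 and 4.49 CPM in the knockout, lower in all 3 knockout libraries though not called (-0.93 ± 0.34 SE, edgeR adjusted p = 0.104). BMI1, the PCGF protein of canonical complexes best known from stem cell self-renewal, was near the bottom of the order in untreated cells. Its values were 1.68, 2.34 and 5.61 CPM in the untreated control and 1.69, 2.03 and 1.97 CPM in the untreated knockout, with overlap and no call (-0.77 ± 0.46 SE, edgeR adjusted p = 0.208). With ATRA BMI1 was at 10.5, 6.73 and 8.71 CPM in the control and 9.54, 3.82 and 9.01 CPM in the knockout, each library above those of its untreated group. BMI1 shares exons with the read-through gene COMMD3-BMI1, whose row held 0 counts in all 12 libraries, and how reads of both genes were assigned is not given in the sources used here.

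PCGF2 (MEL18), the closest paralogue of BMI1, held the largest part of the PCGF family in all 12 libraries. Per GENCODE exon length it gave 45.9 to 67.1% of the 6-gene sum, while BMI1 gave 0.724 to 5.56% and PCGF6 2.17 to 12.6%. PCGF2 stood at 80.9, 72.8 and 80.3 CPM in the untreated control and rose to 119, 122 and 131 CPM in the untreated knockout (log2 fold change 0.67 ± 0.16 SE, edgeR adjusted p = 0.0101). With ATRA it was at 82.2, 78.5 and 86.0 CPM in the control and 96.7, 119 and 108 CPM in the knockout (0.39 ± 0.16 SE, edgeR adjusted p = 0.140). PCGF1, PCGF3 and PCGF5, the PCGF proteins of the remaining variant complexes, were not called by edgeR in any comparison as fitted here. With the G+C trend removed, PCGF5 came to 0.96 between genotypes in untreated cells (edgeR adjusted p = 0.0419). The summed PCGF family per exon kb was 41.4 to 45.2 in the untreated control and 53.0 to 55.8 CPM per kb in the untreated knockout, where PCGF6 fell from 6.45, 9.59 and 12.6% of it to 2.47, 2.17 and 2.25%.

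RYBP, which occupies the place of a CBX protein in variant complexes and stimulates the ligase, was also lower in the untreated knockout. Control libraries were at 99.7, 68.2 and 115 CPM and knockout libraries at 47.6, 46.0 and 62.5 CPM. The groups did not overlap and the fall of 1.81-fold was called (log2 fold change -0.86 ± 0.31 SE, edgeR adjusted p = 0.0454). With ATRA the control libraries spread from 50.1 to 118 CPM (61.6, 118 and 50.1) around knockout values of 52.8, 52.6 and 50.1 CPM, and no difference was called (-0.56 ± 0.30 SE, edgeR adjusted p = 0.246). YAF2, its paralogue, stood at 3.24 to 7.05 CPM untreated and 7.39 to 11.5 CPM with ATRA over both genotypes and was not called by edgeR in any comparison. RYBP gave 87.3 to 96.4% of the sum of both genes per exon length.

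Of the CBX members, CBX8 rose in the untreated knockout and CBX2 and CBX7 were not called. CBX2, the most abundant of the 3 CBX members, was at 158, 115 and 117 CPM in the untreated control and 142, 158 and 201 CPM in the untreated knockout (log2 fold change 0.37 ± 0.24 SE, edgeR adjusted p = 0.241). With ATRA its values were 151, 125 and 156 CPM in the control and 128, 205 and 129 CPM in the knockout, so that CBX2 overlapped between genotypes under both treatments. CBX8 stood at 6.38, 5.42 and 4.46 CPM in the untreated control and 9.31, 10.4 and 7.92 CPM in the untreated knockout. It was 1.70-fold higher without overlap (0.77 ± 0.26 SE, edgeR adjusted p = 0.0389), and with ATRA it was at 7.57, 5.82 and 8.24 CPM against 10.3, 7.86 and 10.7 CPM with overlap (0.42 ± 0.26 SE, edgeR adjusted p = 0.318). CBX7, the main CBX protein of mouse embryonic stem cells, was at 2.19, 13.7 and 9.66 CPM in the untreated control and 4.22, 4.58 and 3.34 CPM in the untreated knockout. Control replicate 1 lay below all 3 knockout libraries and replicates 2 and 3 above them, and CBX7 was not called (-1.07 ± 0.54 SE, edgeR adjusted p = 0.132). With ATRA it was at 4.09, 2.75 and 2.28 CPM in the control and 5.33, 11.3 and 5.92 CPM in the knockout, where all 3 knockout libraries were above the control, again without a call (1.31 ± 0.54 SE, edgeR adjusted p = 0.138). The paralogue CBX6, which also reads H3K27 methylation, was called higher in the untreated knockout, by 0.75 ± 0.27 SE on the log2 scale (edgeR adjusted p = 0.0456).

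In the control, PHC1 and PHC2 had the largest fitted differences with ATRA of the 10 members. PHC1, the PHC protein typical of pluripotent cells, was at 204, 534 and 299 CPM in the untreated control and at 73.1, 89.4 and 106 CPM with ATRA. Every ATRA library lay below every untreated library, a fall of 3.86-fold (log2 fold change -1.95 ± 0.30 SE, edgeR adjusted p = 0.0441). PHC1 was the only member called for ATRA in the control, where 0.115% of all genes were called (22 genes), 0.0993% higher and 0.0157% lower (3 genes), and it ranked 9 by p over all genes tested. In the knockout PHC1 stood at 270.3, 253 and 259 CPM untreated and 140.3, 149 and 145 CPM with ATRA, also without overlap but not called (-0.85 ± 0.29 SE, edgeR adjusted p = 0.261). The difference between these 2 ATRA responses was 1.10 ± 0.41 SE on the log2 scale and was not called (edgeR adjusted p = 0.509). Between genotypes PHC1 overlapped untreated (-0.41 ± 0.29 SE, edgeR adjusted p = 0.280) and was higher in all 3 knockout libraries with ATRA, without a call (0.69 ± 0.29 SE, edgeR adjusted p = 0.140). Reads of PHC1 may be shared with its copy PHC1P1, whose mean was 2.58 to 7.43 CPM over the 4 groups and also lowest in the control with ATRA.

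PHC2, its more widely expressed paralogue, varied widely between libraries of a group. In the control it was at 143, 55.2 and 73.8 CPM untreated and at 452, 108 and 348 CPM with ATRA, where only ATRA replicate 2 came within the untreated range. The log2 fold change for ATRA was 1.74 ± 0.47 SE and missed the threshold (edgeR adjusted p = 0.0837). In the knockout PHC2 was at 229, 231 and 159 CPM untreated and 273, 441 and 273 CPM with ATRA, above all untreated libraries and not called (0.67 ± 0.46 SE, edgeR adjusted p = 0.652). In untreated cells all 3 knockout libraries exceeded all 3 control libraries without reaching the threshold (1.19 ± 0.47 SE, edgeR adjusted p = 0.0652). That difference was called by DESeq2 (1.25, adjusted p = 0.0296), and by edgeR without a filter (adjusted p = 0.0173) or with only the groups compared (adjusted p = 0.0339). With ATRA PHC2 overlapped between genotypes (0.12 ± 0.46 SE, edgeR adjusted p = 0.894). PHC3 was the least abundant PHC gene, at 13.1, 14.8 and 14.3 CPM in the untreated control and 8.89, 7.39 and 7.96 CPM in the untreated knockout (-0.80 ± 0.32 SE, edgeR adjusted p = 0.0676). With ATRA it was at 13.9, 24.6 and 9.26 CPM in the control and 9.13, 6.98 and 8.68 CPM in the knockout (-0.95 ± 0.32 SE, edgeR adjusted p = 0.0826). PHC3 was thus lower in every knockout library than in any control library of the same treatment, with neither difference called.

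The make-up of the PHC family moved accordingly. PHC1 gave 55.6, 88.9 and 77.5% of the family sum per exon length in the untreated control and 12.7, 41.1 and 21.4% in the control with ATRA. In the knockout its share was 51.3, 49.6 and 59.1% untreated and 31.5, 23.3 and 32.3% with ATRA. Within each genotype the untreated and ATRA shares did not overlap. PHC1 was the more abundant of PHC1 and PHC2 in all 3 untreated control libraries, and PHC2 in all 6 ATRA libraries.

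**Figure D3:**
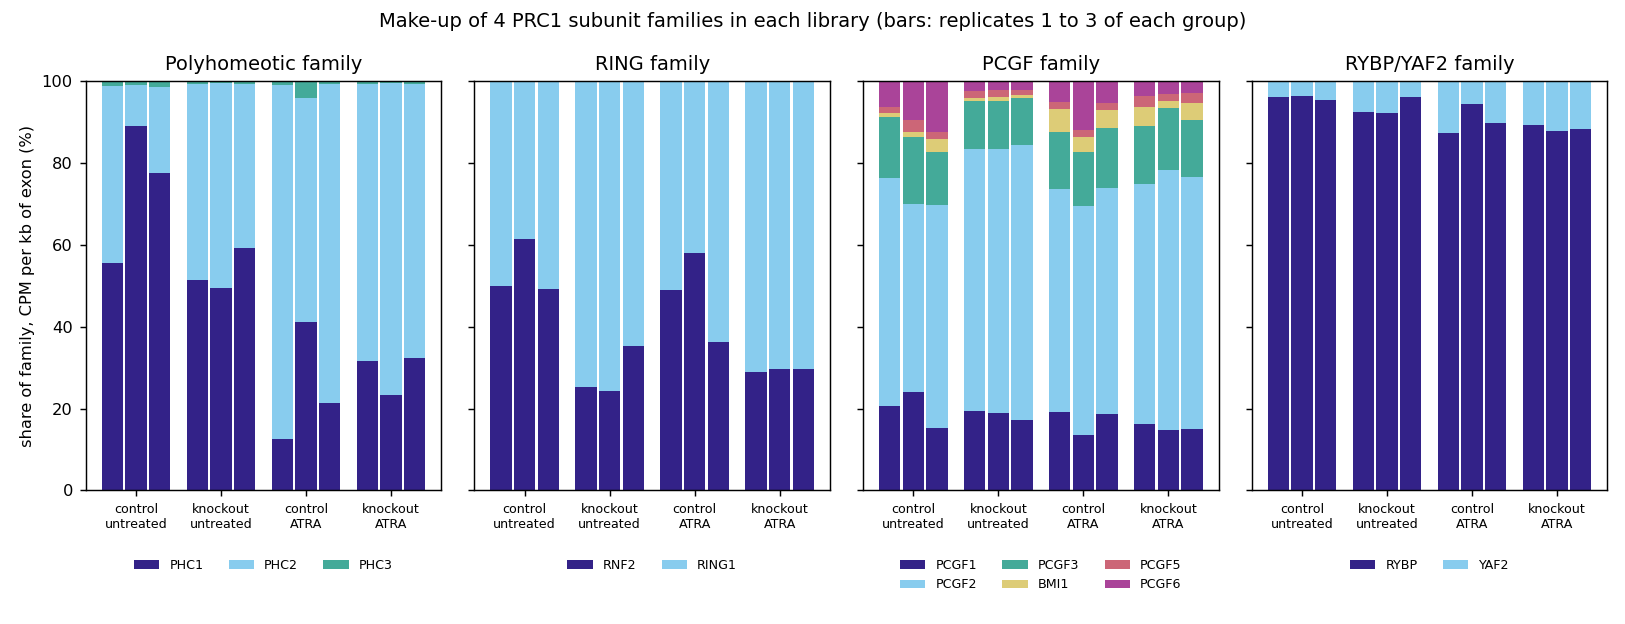
Share of each paralogue in the PHC, RING, PCGF and RYBP/YAF2 families (vertical axis, percent of the family sum of CPM per GENCODE exon length), with 1 stacked bar per library and replicates 1 to 3 side by side in each of the 4 groups. PHC1 is the largest part of its family in untreated control libraries (55.6 to 88.9%). In ATRA libraries its part is 12.7 to 41.1%, below PHC2 and above PHC3. RNF2 is 24.4 to 35.3% of its pair in the untreated knockout.

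For ATRA in the control, 4 members had an unadjusted edgeR p below 0.05, as had 3961 of all 19130 genes. PHC1 alone of these members was called. The others were PHC2, BMI1 (1.42 ± 0.46 SE, edgeR adjusted p = 0.120) and CBX7 (-1.49 ± 0.54 SE, edgeR adjusted p = 0.152). Libraries with and without ATRA did not overlap for BMI1, which was higher, and PHC1, which was lower, against 14.8% of all genes (7.39% higher and 7.44% lower). In the knockout no member was called for ATRA by edgeR, which called 0.0314% of all genes, 0.0261% higher and 0.00523% lower. At an unadjusted edgeR p below 0.05 there were 2 members (BMI1 and PHC1) and 2233 of all 19130 genes. DESeq2 called 1 member and 561 of all genes, and limma-voom 0 of each. BMI1 had the largest difference there, at 1.98 ± 0.47 SE on the log2 scale (edgeR adjusted p = 0.128). With only the groups compared in the fit, edgeR called BMI1 (1.96, adjusted p = 0.0276) and PHC1 (-0.87, adjusted p = 0.00833), and without a filter it called BMI1 (adjusted p = 0.0204). Libraries did not overlap for PHC2, RNF2, BMI1, PCGF6 and CBX7, which were higher with ATRA in the knockout, and for PHC1, which was lower, against 31.9% of all genes (17.2% higher and 14.7% lower). No member showed a called interaction of genotype and ATRA by edgeR, DESeq2 or limma-voom, and edgeR called 0% of all genes. PHC1 and CBX7 had an unadjusted edgeR p below 0.05, as had 1868 of all 19130 genes. CBX7 had the largest interaction, at 2.38 ± 0.76 SE on the log2 scale (edgeR adjusted p = 0.509). When untreated control replicate 1 was left out, the CBX7 interaction was 2.83 and was called (edgeR adjusted p = 0.0449).

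The G+C content of the members ran alongside their differences between genotypes in untreated cells. The members with 36.0 to 42.0% G+C in their longest transcript (RNF2, PHC3, BMI1, RYBP and PCGF6) all had log2 fold changes below 0. Those above 0 (PHC2, CBX2 and CBX8) had 57.4 to 60.2%, while PHC1 (52.5%) and CBX7 (59.3%) were below 0 with a G+C content above the median of 48.8%. Across 16377 genes, the rank correlation of log2 fold change with G+C content was 0.454 untreated and 0.292 with ATRA, described across genes, which are not independent replicates. After each library's G+C trend was removed, that correlation was 0.121 untreated and PCGF6 alone of the members was called (-1.11, edgeR adjusted p = 0.0194). RNF2 changed sign to 0.26, RYBP moved to -0.16 (edgeR adjusted p = 0.677) and CBX8 to 0.44 (edgeR adjusted p = 0.192). PHC3 and BMI1 came to 0.08 and 0.05, and PHC1 to -0.80. The paralogues RING1, PCGF2 and CBX6 also lost their calls: RING1 moved to 0.60 (edgeR adjusted p = 0.0865), PCGF2 to 0.35 (0.0997) and CBX6 to 0.45 (0.237). For PHC1 with ATRA in the control the value was -2.07, close to that without the correction, with an edgeR adjusted p of 0.0550. Summed stromal markers also differed between genotypes, and their part in these differences was not tested. The PCGF6 call was kept, and the number of members called was 1, without untreated knockout replicate 3 and knockout ATRA replicate 2. These were the knockout libraries with the lowest stromal sums (2248 and 2258 CPM). The knockout libraries with the higher sums remained, so this fit does not test the stromal difference.

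**Figure D4:**
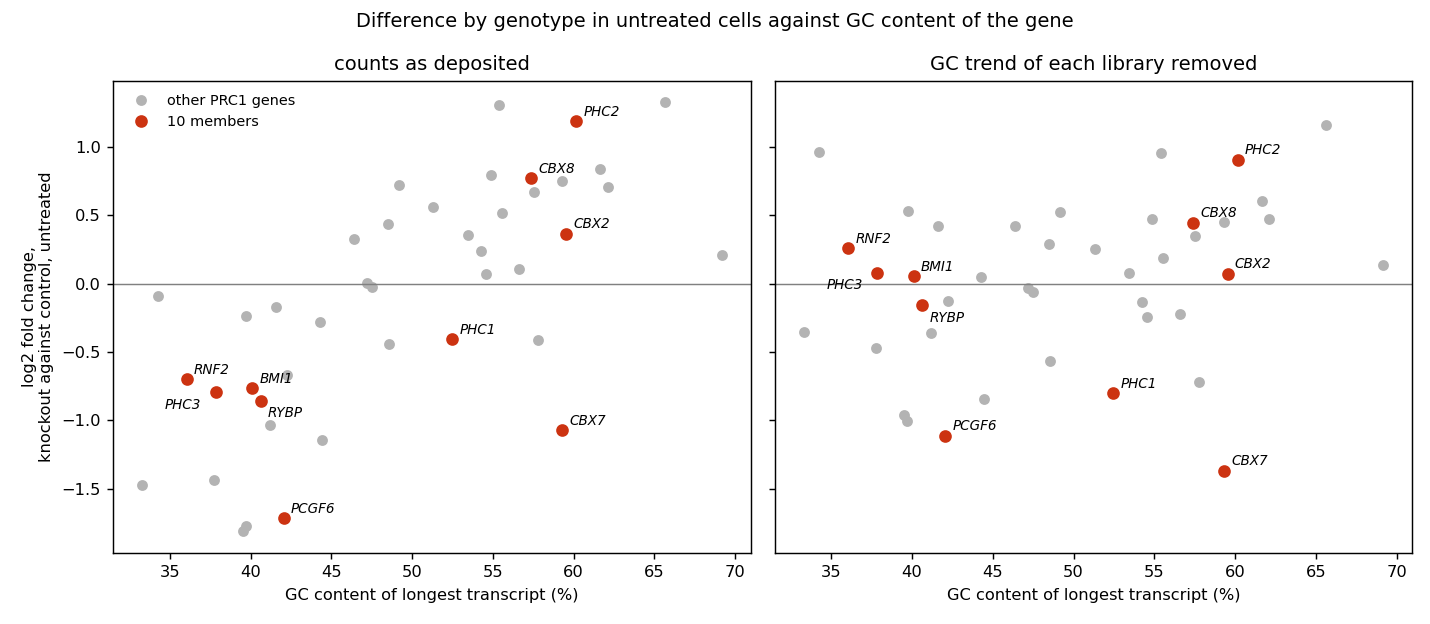
Log2 fold change between knockout and control in untreated cells (vertical axis) against the G+C content of the longest transcript (horizontal axis, percent), before and after removal of each library's G+C trend; grey points are the further PRC1 genes listed and red labelled points are the 10 members. RNF2 lies at -0.70 before and 0.26 after removal, and PCGF6 at -1.72 and -1.11.

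The calls of RNF2, RYBP and CBX8 depended on the settings and on the libraries included. Among 10 other settings, RNF2 was called in 3 and CBX8 and RYBP in 4 each. With all libraries kept, RLE scaling lost RNF2 and RYBP (edgeR adjusted p = 0.0514 and 0.0596). The fit without a filter lost RNF2 and CBX8 (edgeR adjusted p = 0.0651 and 0.170), and limma-voom lost RYBP (adjusted p = 0.0512). RNF2 was called in 5 of the 12 fits without 1 library, CBX8 in 4 and RYBP in 3, with edgeR adjusted p-values of up to 0.156 where the call was lost. All 3 calls were lost without untreated control replicate 3, any of the untreated knockout libraries, or knockout ATRA replicate 1 or 3. The number of members called was 6 without untreated control replicate 1 or control ATRA replicate 2, 2 without untreated control replicate 2 or control ATRA replicate 1, and 1 without any of the libraries at which all 3 calls were lost. PHC1 with ATRA in the control was called in 2 of the 12 (without untreated control replicate 1 or control ATRA replicate 2) and had adjusted p-values of 0.0645 to 0.213 in the others. Its log2 fold change without untreated control replicate 2, the library with the highest PHC1, was -1.49.

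Genes next to a member on the chromosome gave a local reference for the comparison in untreated cells. Among the 10 tested genes on each side, the median log2 fold change was -0.73 around RNF2, where 9 of 20 were called lower and none higher, so that RNF2 at -0.70 lay at the median of its neighbourhood. Around PHC3 the median was -1.05, and around CBX8 it was 0.38 with 7 of 20 called higher. CBX2 and CBX8 are adjacent on chromosome 17, and the median around CBX2 was 0.41. PCGF6 and RYBP, at -1.72 and -0.86, lay below the medians of their neighbours, which were -0.19 and -0.26. Of 20 neighbours, 4 were called higher and 6 lower around PCGF6, and 5 higher and 4 lower around RYBP. CBX7 at -1.07 had neighbours with a median of 0.69, and PHC2 at 1.19 had neighbours with a median of 0.18.

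Of 32 further PRC1 genes, all tested, 13 were called between genotypes in untreated cells, 7 higher and 6 lower, near the background of 34.9% of all genes (13% higher and 21.9% lower). The 4 with the smallest adjusted p were SCML2, E2F6, CBX3 and SCMH1. SCML2, a Polycomb protein related to the fly gene Scm, stood at 49.4, 45.1 and 53.9 CPM in the control and 12.7, 11.6 and 19.1 CPM in the knockout (log2 fold change -1.77 ± 0.26 SE, edgeR adjusted p = 0.00248). E2F6, the DNA-binding partner of PCGF6, was at 38.8, 28.0 and 31.8 CPM in the control and 15.2, 14.7 and 14.7 CPM in the knockout (-1.14 ± 0.21 SE, edgeR adjusted p = 0.00401). CBX3, an HP1 protein found in the PCGF6 complex, was at 84.0, 283 and 191.7 CPM and at 56.4, 50.5 and 52.1 CPM (-1.81 ± 0.37 SE, edgeR adjusted p = 0.00557). These 3 genes were each lower in all 3 knockout libraries. SCMH1, another Scm relative, was higher, at 51.9, 53.1 and 49.1 CPM in the control and 140.0, 137 and 104 CPM in the knockout (1.31 ± 0.29 SE, edgeR adjusted p = 0.00756). With ATRA, edgeR called 1 of the 32, SCML2, against 7.51% of all genes. DESeq2 called 6 of them and 2964 of all 19130 genes, and limma-voom 1 of them and 1015 of all genes. SCML2 stood at 29.2, 37.0 and 32.8 CPM in the control and 9.88, 16.0 and 11.2 CPM in the knockout (-1.42 ± 0.26 SE, edgeR adjusted p = 0.0102). None of the 32 was called for ATRA in either genotype or for the interaction by edgeR. At an unadjusted edgeR p below 0.05 there were 7 in the control, 4 in the knockout and 3 for the interaction. Of all 19130 genes there were 3961, 2233 and 1868. DESeq2 called 1 of the 32 for ATRA in the control, against 1621 of all genes. It called 0 of them in the other comparisons of these 3, and limma-voom 0 in each. After removal of the G+C trend, SCML2 (-1.01), E2F6 (-0.84), CBX3 (-0.96) and SCMH1 (0.95) were still called in untreated cells (edgeR adjusted p = 0.0304, 0.0163, 0.0285 and 0.0273), as was SCML2 with ATRA (-1.04, edgeR adjusted p = 0.0479).

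Over the 12 libraries, the gene whose log2(CPM + 1) followed a member most closely was sought among 11033 genes with a mean of at least 5 CPM. Pearson correlations, which also reflect the genotype, ATRA and G+C differences these libraries share, are given as descriptions. PCGF6 was closest to FUT8 (r = 0.989), CBX8 to PLA2G15 (0.984), PHC3 to RRP15 (0.981), PHC2 to BMF (0.979) and RNF2 to SMIM15 (0.977). CBX2 was closest to CLN8 (0.973), RYBP to MBNL3 (0.964), CBX7 to ZSWIM4 (0.923) and BMI1 to CRNDE (0.916).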

How the data were processed

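Raw gene counts of 12 libraries were deposited (made with a TruSeq stranded kit, per the labels), which the authors obtained with bcl2fastq, TopHat2, Subread and featureCounts on hg19/GRCh37, per the submitters' processing notes, which also name DESeq2. The deposited gene length (unit: bases) was more than 1.8 times the GENCODE v44 exon length for 4.83% of tested genes, so the GENCODE length (GRCh38), chosen after seeing the data, was used to compare levels between genes. Neither the strand option of the counting nor its treatment of multiply matching reads is given in the sources used here.

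Computed here: edgeR 4.0.16 (R 4.3.3) with filterByExpr (minimum count 10), TMM scaling, 1 coefficient per group over all 12 libraries and quasi-likelihood F-tests, with Benjamini-Hochberg adjustment over 19130 genes. Fold changes are fitted values, and SE is the size of the log2 fold change over the root of F. The biological coefficient of variation was 0.367. Alternatives were RLE scaling, DESeq2 1.42.0, voom in limma 3.58.1, other filters and sample sets, a replicate block, removal of each library's trend with G+C content (longest GENCODE transcript, 85.6% of tested genes) and leaving out each library. At these depths 3 counts equal 0.0433 to 0.128 CPM. The tests were tested on simulated data. Neighbouring genes were ordered by RefSeq on GRCh38.p14 (79.05% of tested symbols matched), and promoters were read from RefSeq.

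The members and lists were chosen with earlier results of these data known. Named were all 10 members in every comparison, their paralogues, and up to 4 further PRC1 genes per comparison with the smallest adjusted p among those called; a few results under it are not reported here.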

Additional observations from a re-analysis of the deposited data

How the results depend on the processing

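Between genotypes in untreated cells 4 members were called; the number was 2 with RLE scaling, 5 by DESeq2 (PHC2 gained), 1 with the replicate block, 1 with the G+C trend removed, 0 with the near-identical knockout libraries summed, 1 without untreated knockout replicate 3 and knockout ATRA replicate 2 together, and 1 to 6 without 1 library, where PHC1, PHC2, PHC3 or CBX7 were called in some fits. PCGF6 was lost only by summing (adjusted p = 0.0510), and RNF2 reversed to 0.26 with the G+C trend removed; the causes were not tested. With ATRA the count was 1 by DESeq2 (PHC3, -0.89, adjusted p = 0.0439) and 0 to 1 without 1 library. For ATRA in the control it was 3 by DESeq2 (PHC1, PHC2 and BMI1), 2 without a filter, 0 with only the groups compared, with the replicate block, with the G+C trend removed, with libraries summed or with both libraries left out, and 0 to 3 without 1 library. For ATRA in the knockout it was 1 by DESeq2 (BMI1), 1 without a filter, 2 with only the groups compared (PHC1 and BMI1) and 0 in each fit without 1 library. For the interaction it was 0 to 1 without 1 library. Values that were not called also changed sign: with the G+C trend removed, PHC3 from -0.80 to 0.078 and BMI1 from -0.77 to 0.053 between genotypes untreated, CBX2 to -0.0062 and BMI1 to 0.078 between genotypes with ATRA, PHC3 to -0.25 for ATRA in the knockout and RNF2 to -0.30 for the interaction. Without both libraries, PHC2, CBX2 and BMI1 between genotypes with ATRA came to -0.15, -0.16 and 0.10, and RYBP for ATRA in the knockout to 0.14, as it did to 0.013 with limma-voom, 0.028 without a filter and 0.0049 with the stricter filter; PHC3 there came to -0.0098 with libraries summed. Without 1 library the ranges that crossed 0 were -0.67 to 0.046 for PHC1 between genotypes untreated; -0.28 to 0.53 for PHC2, -0.16 to 0.22 for CBX2 and -0.43 to 0.10 for BMI1 between genotypes with ATRA; -0.28 to 0.46 for PHC3 with ATRA in the control; -0.044 to 0.14 for PHC3, -0.37 to 0.039 for CBX2, -0.036 to 0.19 for CBX8 and -0.085 to 0.15 for RYBP with ATRA in the knockout; and -0.12 to 0.86 for BMI1, -0.46 to 0.31 for PHC3 and -0.021 to 0.39 for RNF2 in the interaction. Correlations of same-numbered deviations ran from -0.617 to 0.547. For ATRA, control replicates 1 and 2 (0.115 and 0.319) and knockout replicate 1 (0.547) correlated best with their own number. The remaining replicates for ATRA, and all replicates between genotypes, did not, so the numbers were not taken to pair the samples. All genes called between genotypes in untreated cells numbered 6676, but 3792 with the G+C trend removed and 1072 with libraries summed, and of the 32 further PRC1 genes 13, but 6 and 2 there and 8 without a filter. With ATRA 1437 genes were called, against 71 (libraries summed) to 2964 (DESeq2). For ATRA in the control 22 were called, against 0 (only the groups compared, or libraries summed) to 1621 (DESeq2), and in the knockout 6, against 0 (limma-voom, replicate block, libraries summed or both left out) to 1336 (only the groups compared). RNF2 averaged 77.5% of its pair per deposited length, 57.5% by CPM and 39.8% per GENCODE length. The lowest counts of BMI1, CBX7 and PCGF6 were 46, 78 and 88, all in untreated knockout replicate 3. In the untreated control these genes had SDs of 2.10, 5.83 and 3.94 CPM between libraries, a spread that limits the precision of their values.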
